A study of Mus musculus with 4 samples.

Results

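The genes described here are the cadherins (*Cdh*) and nonclustered protocadherins (*Pcdh*) whose symbol is the family name followed by a number, with an x allowed after the number of a protocadherin. The clustered *Pcdha*, *Pcdhb* and *Pcdhg* genes were not included. The rule took 35 of the 32285 genes counted. By structural class these were 5 type I cadherins (*Cdh1*, *Cdh2*, *Cdh3*, *Cdh4* and *Cdh15*), 13 type II cadherins (*Cdh5* to *Cdh12*, *Cdh18*, *Cdh19*, *Cdh20*, *Cdh22* and *Cdh24*), the GPI-anchored *Cdh13*, *Cdh16* and *Cdh17*, *Cdh23* and *Cdh26*, 4 delta-1 protocadherins (*Pcdh1*, *Pcdh7*, *Pcdh9* and *Pcdh11x*), 5 delta-2 protocadherins (*Pcdh8*, *Pcdh10*, *Pcdh17*, *Pcdh18* and *Pcdh19*) and *Pcdh12*, *Pcdh15* and *Pcdh20*. *Cdh13*, *Cdh16*, *Cdh17*, *Cdh23* and *Cdh26* are thus taken in by their symbol although they are not classical type I or type II cadherins.

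Cadherins are calcium-dependent adhesion molecules that bind cadherins on the neighbouring cell. Classical cadherins connect to the actin cytoskeleton through catenins, and type I and type II cadherins differ in the residues that anchor the binding partners. The delta protocadherins have further ectodomain repeats and distinct cytoplasmic motifs. In the nervous system different neuron groups carry different combinations of these genes, which take part in sorting nuclei, guiding axons and matching synaptic partners, while *Cdh5* is known from endothelial junctions and *Cdh1* from epithelia.

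Nuclei of the hindbrain, with the area postrema and the nucleus tractus solitarii, were sorted and profiled with the 10x Genomics 3′ assay in 4 libraries, 2 per group. Both groups carried the receptor transgenes hM3DGq fl/- and hM4DGi fl/-. Control mice had neither recombinase (AgRP-IRES-Cre-/- and POMC-Dre-/-), whereas AgRP-Gq;POMC-Gi mice had 1 copy of each (AgRP-IRES-Cre+/- and POMC-Dre+/-), so that Cre made in *Agrp* cells switched on the activating receptor hM3DGq and Dre made in *Pomc* cells the inhibitory receptor hM4DGi. All mice, males and females of 12 to 20 weeks, were killed 1 h after an injection of CNO (3 mg per kg), the ligand of both receptors, and had no food in between. GEO's labels call the controls wildtype. Samples of a condition were pooled, and which mice went into which library is not stated in the sources used here, so p-values measure the spread between libraries, which may be technical.

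The deposited annotation kept 39461 nuclei of 14 cell types, 9723 to 10051 per library with 48904976 to 53089402 UMIs. Neurons, 12539 in all, were 25.4% and 27.2% of control nuclei and 38.0% and 36.5% of AgRP-Gq;POMC-Gi nuclei, with a median of 8704 UMIs per nucleus against 2460 in oligodendrocytes. Pairs of libraries shared 19 to 36 barcodes. AgRP-Gq;POMC-Gi replicate 2 stood apart in *Xist*, with 16.2 CPM in neurons against 319 to 541 CPM in the other libraries. Control replicate 2 and AgRP-Gq;POMC-Gi replicate 2 held 436 and 329 choroid plexus nuclei against 2 and 6 in the other libraries, and in their neurons *Ttr*, a choroid plexus gene, stood at 1003 and 580.3 CPM against 1.49 and 7.53 CPM. Levels are CPM, the UMIs of a gene scaled to all UMIs of the same nuclei in 1 library, and are given as mean ± SD of the 4 libraries unless the libraries are listed, always with control replicates 1 and 2 first and AgRP-Gq;POMC-Gi replicates 1 and 2 after them.

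The members divided over the cell types, and no type held the highest level of more than 5 of them. Of the 35 genes, 32 had at least 50 UMIs in all, and *Cdh26* and *Cdh17* with 29 UMIs each and *Pcdh12* with 19 UMIs did not. Neurons and oligodendrocyte precursor cells (OPC) each held the highest level of 5 members, oligodendrocytes and the nuclei labelled Oligodendrocytes/OPC of 4 each, astrocytes, tanycyte-like cells, mural cells, fibroblasts and endothelial cells of 2 each, and choroid plexus, ependymal, F13a1 immune and Tmem119 immune cells of 1 each. For 14 of the 32 members all 4 libraries of the highest type lay above all 4 of the next, and for 16 the same type was highest in each library. Cell types are built from expression, so these orders are a description and were not tested.

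**Figure D1:**
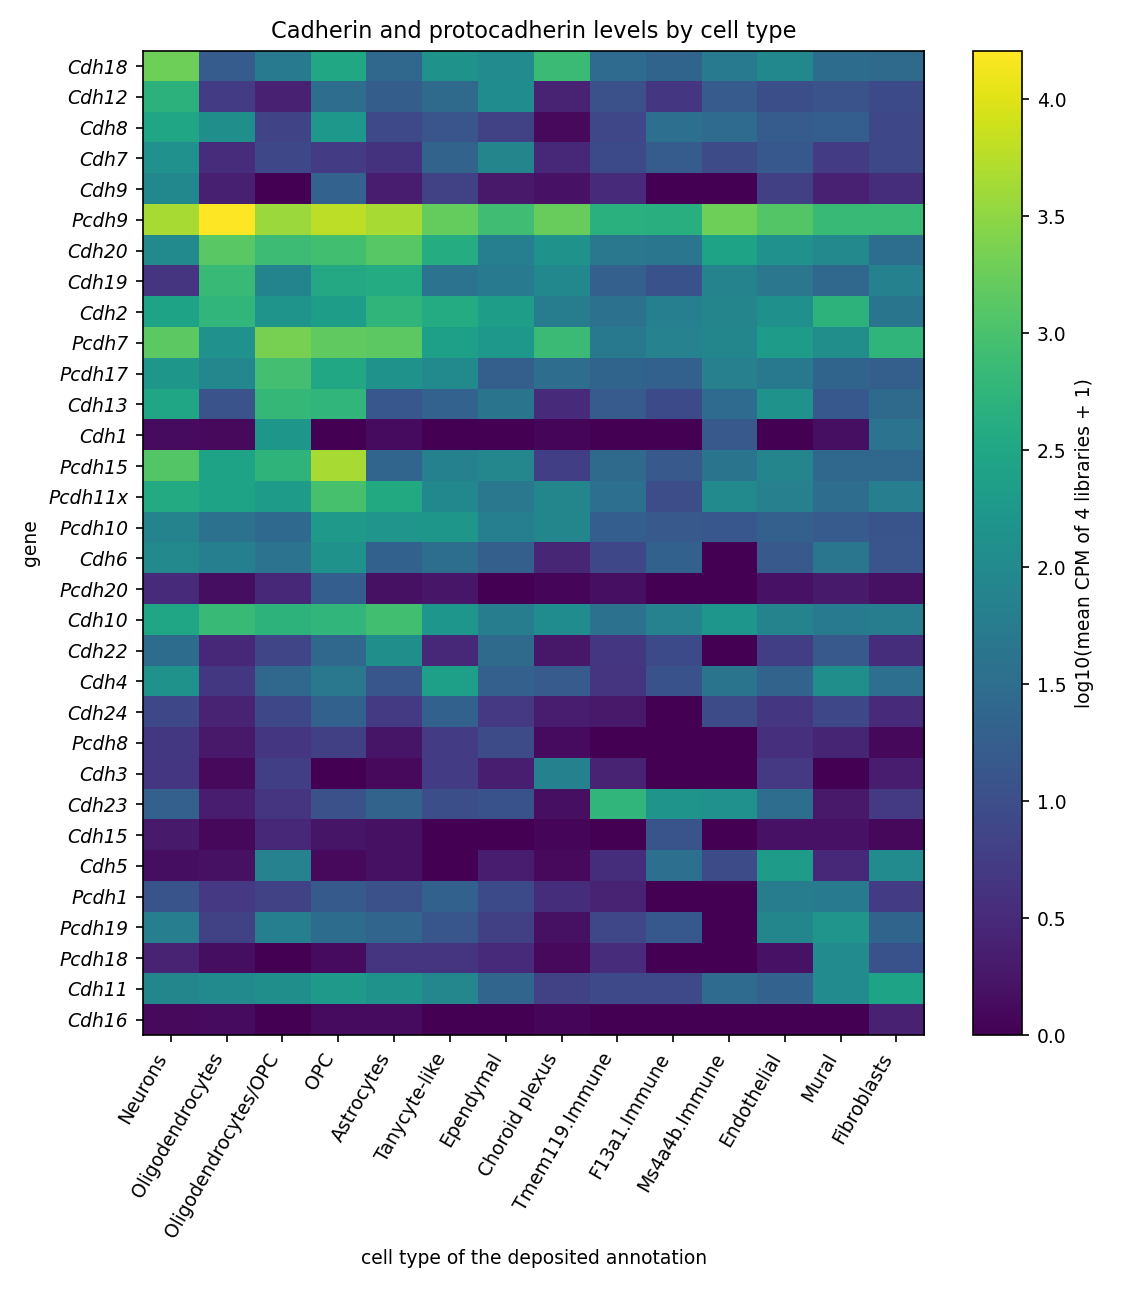
Mean CPM of the 4 libraries, as log10(mean CPM + 1) in colour, for the 32 members with at least 50 UMIs (rows) in the 14 cell types of the deposited annotation (columns), with rows ordered by the type of their highest level. *Cdh18*, *Cdh12*, *Cdh8*, *Cdh7* and *Cdh9* form the neuronal block at the top, *Pcdh9* is brightest in oligodendrocytes at 16138.5 CPM, and *Cdh23* stands out in the Tmem119 immune cells at 583 CPM.

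The 5 members that peaked in neurons were all type II cadherins. *Cdh18* stood at 1915 and 1968 CPM in neurons of the control libraries and at 2104 and 1691 CPM in those of the AgRP-Gq;POMC-Gi libraries, against 15.5 ± 1.47 CPM in oligodendrocytes. It was found in 90.7% of neurons and 3.04% of oligodendrocytes, and after every nucleus was thinned to 800 UMIs in 56.2% and 1.21%. Choroid plexus cells came next with 744 ± 438 CPM, below neurons in every library. *Cdh12* reached 464, 482, 566 and 470.5 CPM in neurons, with ependymal cells next at 110.0 ± 66.9 CPM. *Cdh8*, which has been studied in the wiring of cortical and sensory circuits, reached 313, 287, 277 and 321 CPM and was next highest in OPC at 172 ± 27.8 CPM. Their libraries did not overlap with those of the next type. *Cdh9*, known for a role in hippocampal synapse formation, was at 90.6, 89.0, 100.7 and 83.8 CPM in neurons and 20.4 ± 11.0 CPM in OPC. It was found in 34.8% of neurons and 0.339% of oligodendrocytes, or 6.34% and 0.0833% after thinning. *Cdh7* was the exception, since its neuronal 126, 135, 145 and 118 CPM overlapped with the ependymal 105.4, 39.8, 128 and 56.5 CPM.

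OPC carried the highest levels of *Pcdh15*, *Pcdh11x*, *Pcdh10*, *Cdh6* and *Pcdh20*. *Pcdh15*, which with *Cdh23* forms the tip links of sensory hair cells, stood at 4594, 4123, 4711 and 4619.6 CPM in OPC and at 1206 ± 55.1 CPM in neurons. The X-linked *Pcdh11x* stood at 865, 894, 1150.1 and 991 CPM, with neurons next at 371 ± 6.18 CPM. The libraries of OPC and neurons did not overlap for either gene. *Cdh6*, known from retinal circuits, stood at 157, 121, 110.2 and 171 CPM in OPC, above the 91.1 to 97.8 CPM of neurons. *Pcdh20* was low but even, at 17.6, 16.4, 16.5 and 17.4 CPM in OPC against 2.32 ± 0.625 CPM in neurons. *Pcdh10*, a delta-2 protocadherin known from axon growth, stood at 188 ± 32.0 CPM in OPC, and its libraries overlapped with those of tanycyte-like cells (169.8 ± 16.8 CPM).

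Oligodendrocytes peaked in *Pcdh9*, *Cdh19*, *Cdh20* and *Cdh2*. *Pcdh9*, with 1414184 UMIs the member with the most counts, stood at 16641, 15765, 17042 and 15106 CPM in oligodendrocytes, 2.66-fold the level of OPC (6059 ± 237 CPM) and above neurons (4610.5 ± 467 CPM) and astrocytes (4481 ± 170.3 CPM). The lowest library of oligodendrocytes was above the highest of OPC. *Cdh19*, known from glial lineages such as Schwann cells, stood at 775, 707, 680.0 and 698 CPM, with astrocytes next at 394 ± 36.0 CPM, OPC at 344 ± 68.7 CPM and neurons at 3.30 ± 1.83 CPM. It was found in 67.0% of oligodendrocytes and 2.15% of neurons, although neurons had the deeper nuclei. *Cdh20* and *Cdh2*, the latter the N-cadherin of neural tissue, did not tell oligodendrocytes from astrocytes beyond the spread of libraries, with 1348 ± 94.4 against 1289 ± 79.4 CPM for *Cdh20* and 583 ± 96.9 against 555 ± 29.8 CPM for *Cdh2*. In neurons *Cdh20* was at 100.1 ± 4.599 CPM and *Cdh2* at 280.1 ± 13.9 CPM.

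The members of highest level in the other glia and in the vessels separated from the next type in some cases and overlapped with it in others. *Cdh22* stood at 156, 119.6, 116.2 and 110.1 CPM in astrocytes, against 29.7 ± 3.82 CPM in neurons and 1.98 ± 0.692 CPM in oligodendrocytes. *Cdh10* was highest in astrocytes in each library (754, 827, 937 and 859 CPM), although oligodendrocytes at 711 ± 129.7 CPM overlapped with them. *Cdh4*, the retinal cadherin, reached 235 ± 51.5 CPM in tanycyte-like cells and 143 ± 9.89 CPM in neurons without overlap. *Cdh23* stood at 629, 558, 705 and 440.1 CPM in Tmem119 immune cells, next to F13a1 immune cells at 148 ± 66.2 CPM. It was found in 61.9% of Tmem119 immune nuclei (median 1871 UMIs) and 0.315% of oligodendrocytes. *Cdh5*, the cadherin of endothelial junctions, stood at 237, 165, 209.6 and 198 CPM in endothelial cells and at 106 ± 50.9 CPM in fibroblasts, whose AgRP-Gq;POMC-Gi replicate 2 with 181 CPM lay within the endothelial range. *Pcdh18* stood at 97.1, 109.7, 122 and 97.2 CPM in mural cells, 10.2-fold the level of fibroblasts, and *Pcdh19*, an X-linked gene linked to epilepsy, at 158 ± 51.1 CPM in mural and 84.5 ± 23.3 CPM in endothelial cells. *Pcdh1* did not separate endothelial (56.8 ± 11.2 CPM) from mural cells (51.4 ± 9.52 CPM), and *Cdh11* was highest in fibroblasts at 272 ± 125 CPM, overlapping with OPC at 190.04 ± 22.7 CPM. The placental cadherin *Cdh3* was at 73.6, 79.6 and 129 CPM in choroid plexus cells of 3 libraries and had no UMI in the 2 choroid plexus nuclei of control replicate 1.

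The Oligodendrocytes/OPC label covers 2 clusters that differ, and its 4 members rest on one or the other. The first, with 9 to 20 nuclei per library, carried *Pcdh7* at 3062 CPM and *Pcdh17* at 1160.2 CPM. Over both clusters *Pcdh7* stood at 3560.2, 759, 1547 and 2821 CPM in the 4 libraries, against a steady 1408, 1400.04, 1430.1 and 1418 CPM in neurons, and *Pcdh17* at 937, 231, 329 and 2027 CPM. The second held 0, 27, 32 and 2 nuclei in the 4 libraries, went against its label and was led by *Prg4*, *Fn1*, *Gm12153* and *Cdh1*, by the ratio to all other nuclei with 5 CPM added to both levels. *Cdh1* stood at 518 CPM over its pooled nuclei against 0.696 CPM, and *Cdh13* was at 821 CPM. Without this second cluster, an alternative chosen after seeing the data, 30 of 32 members kept their highest type, while *Cdh1* passed to fibroblasts (38.3 ± 15.4 CPM) and *Cdh13* to OPC (587 ± 30.8 CPM).

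Levels of different members were compared only per length of the gene. Per 100 kb of gene span, *Pcdh9* was the highest member in neurons with 526 CPM, followed by *Pcdh7* with 341, *Cdh18* with 207, *Pcdh17* with 177, *Cdh10* with 157 and *Pcdh10* with 133 CPM. The spans ran from 4.54 kb for *Pcdh8* to 1550.4 kb for *Pcdh15*, which fell to 77.8 CPM per 100 kb in neurons.

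On the CPM scale the members had a higher median unevenness over neuronal clusters than all genes, and on a log scale the medians were close. Neurons formed 134 clusters, and 23 members were detected in 5% of neurons or more. Unevenness was measured as tau, which is 0 for a gene at the same CPM in all clusters and 1 for a gene seen in a single cluster. The median tau was 0.762 for the 23 members and 0.640 for the 12115 genes that passed the same filter, and 12 members lay above the upper quartile of all genes (0.755). On log2(CPM + 1) the medians were 0.265 and 0.254. The difference was not tested. A neuronal cluster had 9 to 21 members at 50 CPM or more, with a median of 17, and the most in the cluster the authors named Ankfn1/Pou4f1. Clusters are given below by the pair of genes the authors named them for.

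*Cdh23* had the highest tau, 0.943, and was concentrated in the Slc17a7/Il1rapl2 cluster (83 nuclei). It stood there at 269, 358, 177 and 254 CPM, 68.2-fold the median cluster, and 81.9% of the nuclei had a UMI. Sema3a/Cdh9 and Dach1/Sema3a followed with 143 and 125 CPM, while the median cluster had 3.88 CPM. *Cdh18* (tau 0.839) peaked in the Ebf2/Calb1 cluster (93 nuclei) at 11323, 13036, 9971 and 10353 CPM, where every nucleus had a UMI, 6.84-fold the median cluster. *Cdh20* peaked in the GABAergic Nox4/Kcnmb2 cluster at 455, 1044, 433 and 589.5 CPM, 9.23-fold the median cluster.

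*Cdh6* was highest in the Cartpt/Postn cluster at 509.7, 455, 613 and 643 CPM, 7.21-fold the median cluster. *Cdh9* was highest in the Sema3a/Cdh9 cluster at 285, 566, 560.4 and 469 CPM, a cluster that was named for it. *Cdh4* had its highest mean in the GABAergic Necab1/Pde1a cluster at 712, 713, 719 and 458 CPM, 5.42-fold the median cluster. The glutamatergic Ebf2/Calb1 cluster was close behind, with a mean of 644 against 650 CPM. In the single libraries Necab1/Pde1a ranked 1, 2, 2 and 3 for *Cdh4*. *Cdh13* reached 2339, 1570.2, 1849 and 1479 CPM in the Olfr78/Calcr cluster, to which the control libraries gave 3 and 4 nuclei. Among clusters where every library had 5 nuclei or more it was highest in Fgf10/Cpne4 at 1038, 906, 969 and 980.0 CPM.

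*Cdh22* and *Cdh24* rested on 1 library or on few counts. *Cdh22* peaked in the Cnpy1/Adamts18 cluster at 461, 83.5, 39.6 and 74.5 CPM, so that control replicate 1 alone set the order. *Cdh24* and *Pcdh11x* were highest in Vmn1r207-ps/Pde11a, a cluster seen in the control libraries only. Where every library had 5 nuclei or more *Cdh24* was highest in Cartpt/Arhgap28 at 40.0, 83.4, 12.7 and 22.4 CPM, from 2 to 5 UMIs per library. *Pcdh11x* was then highest in the GABAergic Nxph2/Nox4 cluster at 854, 1373, 1367 and 1257 CPM, where 95.4% of the nuclei had a UMI. *Cdh3* was found in only 2.29% of neurons, and the 2 clusters of its highest means are named after their values were seen. It stood at 71.1, 60.9, 84.8 and 95.2 CPM in Rxfp1/Ebf2 and at 48.9, 58.6, 115.6 and 78.2 CPM in Cdh3/Nkain3, which was named for it.

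**Figure D2:**
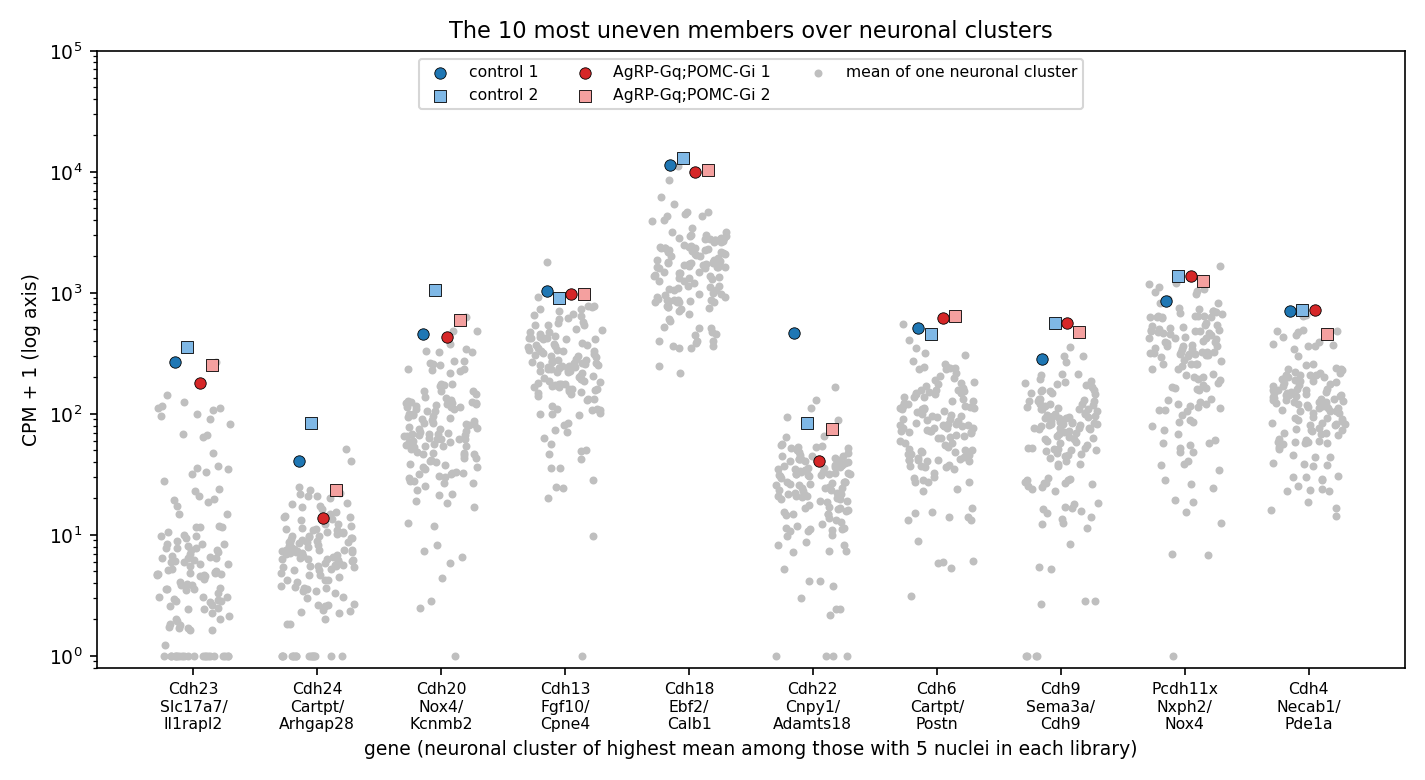
CPM + 1 on a log axis for the 10 members of highest tau, with grey points for the mean of each neuronal cluster and coloured points for the 4 libraries in the cluster named under the gene, the highest of those where each library had 5 nuclei or more. The 4 libraries of *Cdh23*, *Cdh18* and *Cdh6* lie close together above nearly all other clusters, whereas those of *Cdh22* run from 39.6 to 461 CPM.

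Several neuronal clusters could be described by the members that stood highest there over the median cluster, among members with at least 10 CPM. The labels of these clusters give no location within the hindbrain. The Gcg/Reln cluster, named for preproglucagon, was led by *Cdh9* at 271, 325, 339 and 258 CPM, 4.01-fold the median cluster, with *Cdh20* at 153.2 ± 22.7 and *Cdh10* at 609 ± 132 CPM after it. The Ebf2/Th cluster had *Cdh8* at 1245, 1162, 1070.3 and 1359 CPM, 4.77-fold the median, and *Cdh22* at 92.9 ± 28.0 CPM. Its mean of *Cdh8*, 1209 CPM, was the highest of all neuronal clusters, but Ccdc172/Ebf2 was close behind with 1198 CPM. In the single libraries Ebf2/Th ranked 3, 1, 2 and 1 for *Cdh8*. The largest ratio in Ebf2/Th was that of *Cdh19* (17.1 CPM), which came from 8 UMIs in AgRP-Gq;POMC-Gi libraries and none in the controls.

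The GABAergic Tal1/Nell1 cluster had *Cdh23* at 217, 78.7, 46.9 and 104 CPM, 28.8-fold the median, with *Cdh22* at 41.5 ± 21.8 and *Cdh13* at 346 ± 109.1 CPM. The Prph/Slc5a7 cluster, named for peripherin and the choline transporter, had *Cdh13* at 525, 1117, 700.2 and 781 CPM, 3.21-fold the median, with *Cdh6* at 183 ± 54.8 and *Cdh22* at 54.7 ± 21.1 CPM. All 4 libraries of *Cdh23* in Tal1/Nell1 and of *Cdh13* in Prph/Slc5a7 lay above the median cluster (3.88 and 243 CPM), but in Tal1/Nell1 AgRP-Gq;POMC-Gi replicate 1 lay below it for *Cdh22* (13.4 CPM) and *Cdh13* (194 CPM).

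For 3 further clusters most of the leading members were low or uneven. In the Gfral/Sctr cluster, named for the GDF15 receptor, *Cdh19* at 11.0 CPM came from 6 UMIs of control replicate 2, and *Pcdh1* was at 27.8 ± 12.3 and *Cdh24* at 11.3 ± 3.67 CPM. In Rxfp1/Ebf2 *Cdh19* at 16.8 CPM came from 4 UMIs, *Cdh20* was at 153.3 ± 42.5 CPM and *Cdh22* at 51.5 ± 27.6 CPM. *Cdh3*, given above for this cluster, was at 0 CPM in the median cluster, so that it had no ratio and no rank, but was present in all 4 libraries here. In Casr/Slc6a2 *Cdh6* ranged over 957, 62.6, 23.4 and 178 CPM, the first from 3 nuclei, and *Pcdh19* was at 147 ± 68.1 and *Cdh20* at 145 ± 238 CPM.

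Over the 134 neuronal clusters *Cdh9* and *Cdh10* had the most similar levels of all 253 pairs of members. Pearson's correlation of their log2(CPM + 1) was 0.69 and Spearman's 0.67, with 0.51, 0.48, 0.69 and 0.67 in single libraries, and the median over all pairs was 0.10. Of the 10 clusters highest in each gene, 6 were shared (Gal/Dkk2, Dlk1/F13a1, Gcg/Reln, Reln/Pou4f1, Rspo2/Ntng1 and Dkk2/Col25a1). Both are type II cadherins on chromosome 15, 1.96 Mb apart. Clusters share libraries and differ in depth, so these correlations are descriptions without a p-value. The next pairs were *Pcdh10* with *Pcdh15* and *Cdh22* with *Cdh8* (0.41 each), *Pcdh15* with *Cdh9* and *Pcdh10* with *Cdh10* (0.40 each). The lowest were *Pcdh9* with *Pcdh1* (-0.48), *Cdh20* with *Pcdh1* (-0.30) and *Pcdh17* with *Pcdh9* (-0.24). In single libraries they ranged over -0.25 to -0.12 for the first pair, -0.14 to 0.09 for the second and -0.26 to -0.04 for the third, and the second stood at -0.13 without control replicate 1.

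**Figure D3:**
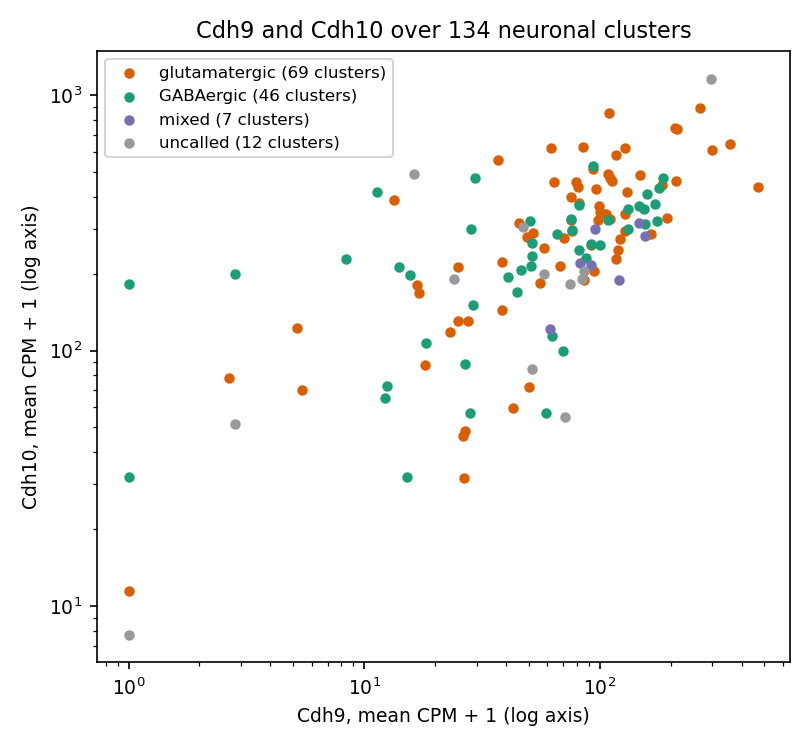
Mean CPM + 1 of *Cdh9* and *Cdh10* in each of the 134 neuronal clusters on log axes, with clusters coloured as glutamatergic (69), GABAergic (46), mixed (7) or uncalled (12). The points rise together (Pearson 0.69), and clusters of all classes lie along the same band.

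Chromosome 15 carries 5 members within positions 13028701 to 23474418 of GRCm38, all of them type II cadherins, in the order *Cdh6*, *Cdh9*, *Cdh10*, *Cdh12* and *Cdh18*. Their 10 pairs had correlations of 0.14 to 0.69 with a median of 0.27. The 13 pairs of members within 10 Mb of each other anywhere in the genome, most of them among these, also had a median of 0.27. The annotation used for the gene spans starts *Cdh9* at 16728756, *Cdh10* at 18818947 and *Cdh18* at 22549022. The stretches given next for these genes lie before a RefSeq start and inside those spans. Which start the counted transcripts used was not tested. The 100 bases before a RefSeq start of *Cdh9* (chr15:16728815-16728914, plus strand), *Cdh10* (chr15:18820229-18820328, plus strand), *Cdh18* (chr15:23036363-23036462, plus strand) and, for the member with the most counts, *Pcdh9* (chr14:93890680-93890779, minus strand) are given below from RefSeq on GRCm38.p6, 5′ to 3′, with CCAAT in capitals.
Cdh9: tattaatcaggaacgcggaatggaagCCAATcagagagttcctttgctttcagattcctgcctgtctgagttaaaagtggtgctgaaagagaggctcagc
Cdh10: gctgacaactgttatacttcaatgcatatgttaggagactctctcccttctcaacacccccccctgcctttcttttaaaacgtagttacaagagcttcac
Cdh18: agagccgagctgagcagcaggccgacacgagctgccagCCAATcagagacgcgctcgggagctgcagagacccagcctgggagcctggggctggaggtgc
Pcdh9: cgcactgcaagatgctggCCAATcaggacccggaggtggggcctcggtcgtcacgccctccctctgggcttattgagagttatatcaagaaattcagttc
*Cdh9*, *Cdh18* and *Pcdh9* hold the motif in this stretch, and *Cdh10*, although closest to *Cdh9* in its levels, does not. RefSeq windows of 250 bases before to 50 bases after the start were found for 22 of the 35 members, 25 windows in all. CCAAT, read on either strand, was in 17 of the 25 (68%) and in 37.4% of 32851 such windows of all genes, GGGCGG in 9 (36%) and 35.7%, and TATAAA in 2 (8%) and 13.6%. The windows of the members had a median GC content of 60.3% against 52.7%. A match is a run of letters and no more, and the share over all windows is given as a description, without a test.

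To compare excitatory and inhibitory neurons by a rule that used none of the members, nuclei with a UMI of the glutamate transporter *Slc17a6* and none of the GABA transporter *Slc32a1* were set against those with the reverse, 4196 and 2229 nuclei with medians of 10079.5 and 10166 UMIs. A further 280 neurons had both and 5834 neither. Glycinergic neurons were not set apart from the class called GABAergic. Their marker *Slc6a5* stood at 83.2 CPM in all neurons, against 27.1 CPM for *Slc32a1*. With edgeR's quasi-likelihood test on UMIs summed per library and class, 1920 of 12417 genes (15.5%) passed an adjusted p of 0.05, 8.63% higher in glutamatergic and 6.83% higher in GABAergic nuclei. Of the 23 members tested, 11 were higher in glutamatergic and 3 in GABAergic nuclei. Of the 11 type II cadherins tested 6 were higher in glutamatergic nuclei and 1 in GABAergic nuclei, and of the 12 other members 5 and 2. Without TMM scaling the split over all genes turned to 41.7% higher in glutamatergic nuclei, from 55.8%, while the members stayed at 11 and 3. No member changed by a log2 fold of 1 or more, which 1.38% of genes did, and the median difference was 0.05 over the members and -0.01 over all genes.

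*Cdh22* and *Cdh13* differed most and are named after their values were seen. *Cdh22* stood at 44.6, 37.4, 30.9 and 37.4 CPM in glutamatergic and at 24.2, 19.3, 17.9 and 19.1 CPM in GABAergic nuclei, a log2 difference of 0.93 ± 0.07 (SE; edgeR adjusted p = 1.9e-07), with no overlap of the libraries. *Cdh13*, which is held in the membrane by a lipid anchor, stood at 343, 383, 342 and 367 CPM against 261, 220.02, 248 and 194 CPM, a difference of 0.68 ± 0.07 (adjusted p = 5.8e-06), again without overlap. Smaller rises in glutamatergic nuclei were found for *Cdh10* (0.40), *Cdh18* (0.38), *Cdh7* (0.37), *Cdh9* (0.33), *Cdh12* and *Cdh4* (0.30 each), *Pcdh11x* (0.25), *Pcdh17* (0.23) and *Cdh2* (0.20), each higher in 4 of 4 libraries. Across libraries the levels in the 2 classes overlapped for *Cdh18*, *Cdh12*, *Cdh4* and *Cdh2*. *Cdh6* was lower in glutamatergic nuclei, with 79.9, 84.7, 91.9 and 83.6 CPM against 94.4, 106, 108.8 and 102 CPM (-0.24 ± 0.04, adjusted p = 0.0010), and *Pcdh10* (-0.18) and *Pcdh7* (-0.15) were lower too. The call of *Pcdh10* was lost with DESeq2 (adjusted p = 0.344), with at least 2 UMIs required (0.178) and without control replicate 1, AgRP-Gq;POMC-Gi replicate 1 or AgRP-Gq;POMC-Gi replicate 2 (0.0545 to 0.152), that of *Pcdh7* without AgRP-Gq;POMC-Gi replicate 2 (0.0576), and those of *Cdh6* (0.0662) and *Cdh12* (0.0851) with at least 2 UMIs required. *Cdh9* and *Cdh10* were thus both higher in glutamatergic nuclei, by similar amounts. Of their neighbours on chromosome 15, *Cdh12* and *Cdh18* were higher too and *Cdh6* was lower. The order of *Cdh6* and *Cdh4* turned in the median over whole clusters, 69 glutamatergic and 46 GABAergic. *Cdh6* stood there at 78.0 against 71.4 CPM and *Cdh4* at 116.4 against 121.6 CPM, while the other called members kept their direction. The part of the mix of clusters in the class sums was not tested. *Pcdh9*, *Pcdh15*, *Cdh8*, *Cdh11*, *Cdh20*, *Pcdh19*, *Pcdh1*, *Cdh23* and *Cdh24* did not pass the test, with log2 differences of -0.13 to 0.05. When whole clusters were classed, *Cdh11* and *Pcdh15* were called lower and *Cdh23* higher in the glutamatergic class. *Cdh11* was also called lower without AgRP-Gq;POMC-Gi replicate 2, and *Cdh8* without control replicate 1.

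**Figure D4:**
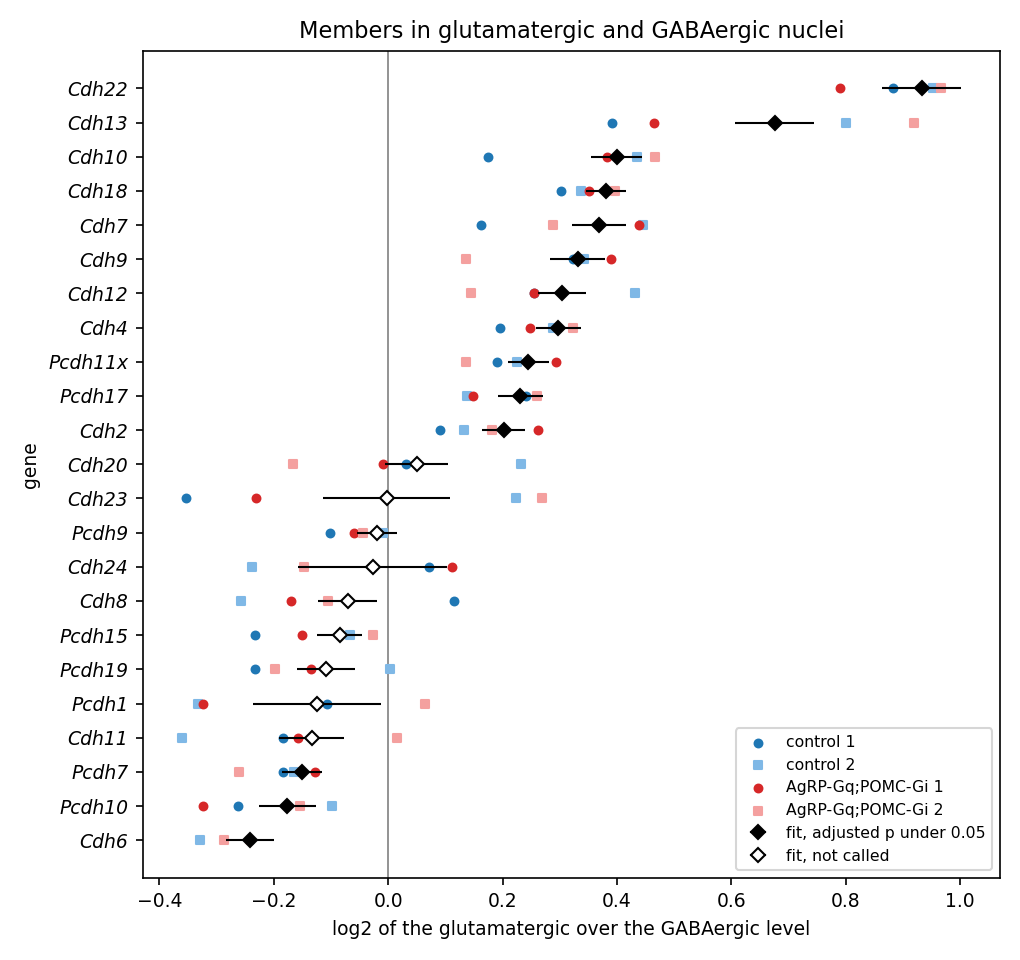
Log2 of the glutamatergic over the GABAergic level for the 23 members tested, with points for the ratio of CPM in each of the 4 libraries and diamonds with bars for the edgeR estimate ± SE, filled where the adjusted p is under 0.05. *Cdh22* and *Cdh13* lie farthest to the right at 0.93 and 0.68, and *Cdh6* at the lower end at -0.24.

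The study's main comparison, AgRP-Gq;POMC-Gi against control, was made per cell type on UMIs summed per library. Over the 13 types with at least 10 nuclei in each library, 112 of 101074 pairs of gene and type (0.111%) passed an adjusted p of 0.05, and 1 of 169 pairs of member and type did. That pair was *Pcdh9* in mural cells, where 43 of 5723 genes (0.751%) passed. *Pcdh9* stood there at 575 and 429.6 CPM in the control and at 838 and 1047 CPM with AgRP-Gq;POMC-Gi, from 308, 184, 124 and 280 UMIs, a log2 difference of 0.95 ± 0.20 (SE; edgeR adjusted p = 0.0019). The groups did not overlap. The summed level of 4 oligodendrocyte markers in mural cells was 1013 and 999 CPM in the control and 933 and 954 CPM with AgRP-Gq;POMC-Gi, that of 4 neuron markers 312 and 329 against 365 and 453 CPM, and their part in the result was not tested. The call was lost without control replicate 2 (adjusted p = 0.906) and without AgRP-Gq;POMC-Gi replicate 2 (adjusted p = 0.132).

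In neurons 0 of 23 members and 0 of 12115 genes passed with edgeR, 667 genes had an unadjusted p under 0.05, and DESeq2 called 10 genes and no member. *Pcdh17*, a delta-2 protocadherin of presynaptic contacts, was nearest, at 157 and 156 CPM in the control and 173 and 190.3 CPM with AgRP-Gq;POMC-Gi (log2 difference 0.27, unadjusted p = 0.0055, adjusted p = 0.81). *Cdh10* (0.18) and *Cdh2* (0.15) followed. A fit without AgRP-Gq;POMC-Gi replicate 2, the library set apart by *Xist*, left 1 library in that group. In that fit the log2 differences were 0.38 (*Cdh12*), 0.28 (*Cdh9*), 0.27 (*Cdh7*), 0.26 (*Pcdh17*), 0.24 (*Cdh2* and *Cdh10*), 0.23 (*Cdh18*), 0.21 (*Cdh4*) and 0.19 (*Cdh6*). These members were picked by their p in the same fit, so they do not stand for the other members. The log2 differences carry TMM scaling, which CPM does not. In CPM *Cdh12* stood at 464 and 482 in the control against 566 in AgRP-Gq;POMC-Gi replicate 1. For *Cdh4* it was 143 and 145 against 154, and for *Cdh6* 91.1 and 94.9 against 97.8. The 4 oligodendrocyte markers summed to 251 and 212 CPM in neurons of the control and to 126 and 158 CPM in those of the AgRP-Gq;POMC-Gi libraries, each of them lower in both, and their part in these values was not tested.

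In oligodendrocytes none of 13 members and none of 6646 genes passed with edgeR, 629 genes had an unadjusted p under 0.05, and DESeq2 called 119 genes. *Cdh11*, a type II cadherin of mesenchyme and brain, stood at 72.2 and 69.2 CPM in the control and at 122 and 126 CPM with AgRP-Gq;POMC-Gi, a log2 difference of 0.87 ± 0.10 (SE; edgeR adjusted p = 0.0703). *Pcdh11x* stood at 357 and 315 against 204 and 229.6 CPM (-0.58 ± 0.10, adjusted p = 0.133) and *Cdh8* at 112 and 78.5 against 171 and 132 CPM (0.74 ± 0.23, adjusted p = 0.354). These 3 genes were picked by their p in this comparison, so that the lack of overlap between their groups adds no support. All 3 were among the 119 genes called by DESeq2 on the same counts, with adjusted p of 3.5e-06, 0.0045 and 0.025. In oligodendrocyte nuclei the 4 oligodendrocyte markers summed to 10521 to 11005 CPM in the 4 libraries. Over the 13 oligodendrocyte clusters mean levels ran from 49.2 to 245 CPM for *Cdh11*, 218 to 336 CPM for *Pcdh11x* and 58.1 to 272 CPM for *Cdh8*. The part of the mix of these clusters in the differences was not tested.

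The members of lowest unadjusted p in the other types did not pass and are given as values. In astrocytes, where 0.626% of genes passed, the log2 differences were 0.34 for *Cdh11*, 0.31 for *Pcdh10* and 0.49 for *Cdh23*, and in OPC (0.0444%) 0.33 for *Pcdh11x*, 0.33 for *Cdh11* and -0.33 for *Cdh19*. The 4 oligodendrocyte markers summed to 538 and 594 against 343 and 430 CPM in astrocytes, to 433 and 541 against 384 and 337 CPM in OPC and to 1015 and 939 against 722 and 753 CPM in Tmem119 immune cells, and their part in these values was not tested. *Pcdh15* in ependymal cells had one of the larger differences, with 148 and 134 CPM in the control and 16.5 and 47.8 CPM with AgRP-Gq;POMC-Gi (-2.10 ± 0.46, adjusted p = 0.598), from 38, 27, 4 and 11 UMIs. *Cdh10* (-0.98) and *Cdh19* (-0.92) followed there. Vessel cells gave 0.78 for *Pcdh7*, 0.50 for *Cdh2* and 0.92 for *Cdh20* in endothelial cells, 0.60 for *Pcdh7* and -0.62 for *Cdh11* in mural cells and 0.77 for *Cdh5*, 0.61 for *Cdh10* and 0.99 for *Cdh2* in fibroblasts. The 4 neuron markers summed to 670.4 and 684 against 262 and 466 CPM in endothelial cells, and their part in these values was not tested. *Cdh20* in endothelial cells rested on AgRP-Gq;POMC-Gi replicate 1 (68.1 and 102.3 against 297 and 69.96 CPM; -0.32 without it) and *Cdh2* in fibroblasts on AgRP-Gq;POMC-Gi replicate 2 (22.2 and 31.5 against 27.1 and 90.3 CPM; -0.029 without it). Immune cells gave 1.28 for *Pcdh9* in the F13a1 type (0.0154%), -1.50 for *Pcdh9* in the Ms4a4b type (0.187%), the latter from 3619 and 2045 against 152 and 1753 CPM, and -0.87 for *Pcdh7*, -0.38 for *Pcdh9* and -0.04 for *Cdh23* in the Tmem119 type. Without AgRP-Gq;POMC-Gi replicate 1, with 3 UMIs of the gene, the value of *Pcdh9* in the Ms4a4b type was -0.70, and without replicate 2 it was -4.35. The oligodendrocyte markers in the Ms4a4b type summed to 3345 and 2012 against 406 and 2155 CPM. The 4 neuron markers summed to 1097 and 1089 against 0 and 833 CPM, and the part of both sets was not tested. In the Tmem119 type the groups overlapped for *Pcdh9* (274 and 798 against 509.6 and 307 CPM) and *Cdh23*, and the sign turned for *Pcdh9* without control replicate 2 (0.59) and for *Cdh23* without control replicate 1 (0.056) or AgRP-Gq;POMC-Gi replicate 2 (0.31). The F13a1 and Ms4a4b types held 88 and 61 nuclei in all, and their other members of lowest p had 0 or 1 UMI in each of 2 libraries or more. In the F13a1 type *Pcdh7* had 0 and 1 UMIs in the control and 0 and 10 in AgRP-Gq;POMC-Gi libraries and *Cdh2* 0 and 1 against 3 and 5, and in the Ms4a4b type *Cdh2* had 3 and 4 against 0 and 1 and *Pcdh17* 2 and 4 against 0 and 1. Oligodendrocytes/OPC nuclei gave 1.40 for *Pcdh19* and 1.45 for *Cdh11*, the latter from 86.5 and 57.8 against 69.3 and 273.0 CPM and 0.089 without AgRP-Gq;POMC-Gi replicate 2, and *Pcdh10* had 2 and 1 UMIs there against 6 and 4. These values are over both clusters of the label, which the libraries held in unlike shares, and *Pcdh19* was at 37.5 CPM over the pooled nuclei of the first and 135.97 CPM over those of the second, of which control replicate 1 had none. The part of this mix in the values was not tested. Tanycyte-like cells gave -1.36 for *Cdh18* and 0.75 for *Cdh20*, and *Cdh6* had 1 and 2 UMIs there against 8 and 17.

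Members whose log2 differences had opposite signs in 2 types were compared in one fit with library as a term, chosen after the values were seen for those signs, and none of the single differences named here passed in its own type. The effect on *Pcdh11x* was higher in OPC than in oligodendrocytes by a log2 of 0.92 ± 0.14 (SE; edgeR adjusted p = 0.0012, where 0.0843% of genes passed), and that on *Cdh11* was higher in oligodendrocytes than in mural cells (adjusted p = 0.0032, 0.469% of genes).

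Within single neuronal clusters the comparison of the groups called few pairs of gene and cluster. In the 120 clusters to which every library gave 5 nuclei or more, 389 of 1396489 pairs (0.0279%) passed a threshold of 0.05 for the p adjusted over all of them. Of the 2644 pairs with a member 11 passed (0.416%), 5 higher and 6 lower in AgRP-Gq;POMC-Gi libraries, in 8 genes and 9 clusters, and 346 had an unadjusted p under 0.05 (13.1%, against 4.51% of all pairs). Of the pairs with a member 55.6% had at least 100 UMIs, against 15.5% of all pairs. Among pairs with at least 100 UMIs, a limit chosen after seeing the data, 8 of 1471 pairs with a member passed (0.544%) and 220 of 216384 of all pairs (0.102%). No pair with a member passed with DESeq2, which called 6 pairs in all, nor with the filterByExpr filter.

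*Pcdh9* in the Ebf2/Calb1 cluster, the cluster where *Cdh18* peaks, had the lowest p. It stood at 656 and 316 CPM in the control and at 1813 and 1305 CPM with AgRP-Gq;POMC-Gi, from 55, 34, 295 and 319 UMIs in 13, 19, 23 and 38 nuclei, a log2 difference of 1.82 ± 0.25 (SE; edgeR adjusted p = 8.5e-08). The groups did not overlap, and the pair was called with each of the 4 libraries left out in turn, but not with DESeq2 (adjusted p = 0.089), filterByExpr (0.078) or scaling by library size alone (0.11). The oligodendrocyte markers summed to 251 and 167 against 135 and 205 CPM in this cluster and the groups overlapped, and their part in the result was not tested. In Cpne4/Trhde *Pcdh9* stood at 116.4 and 490.4 against 1318 and 569 CPM (1.84 ± 0.39, adjusted p = 0.013). Over the 120 clusters both AgRP-Gq;POMC-Gi libraries lay above both controls in 20 and below them in 23 for *Pcdh9*. The share of such clusters over all genes was not computed, so no conclusion is drawn from these counts.

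*Pcdh11x* moved both ways. In Lmo3/Cpne4 it stood at 0 and 17.7 CPM in the control and at 148 and 171 CPM with AgRP-Gq;POMC-Gi, from 2 and 43 UMIs, a ratio of 14.2 in pooled CPM (95% exact interval 3.71 to 121, counting error only; edgeR adjusted p = 0.0060). In Cpne4/Trhde it stood at 615 and 271 against 72.0 and 148 CPM (log2 difference -1.97 ± 0.42, adjusted p = 0.017). The difference of the effects between these clusters, tested after the values were seen, was 5.59 ± 0.88 on the log2 scale (adjusted p = 2e-05, where 0.024% of genes passed).

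Of the other called pairs 5 are described here, 3 of them lower and 2 higher in AgRP-Gq;POMC-Gi libraries, and 2 more pairs that were both lower are not described. In Cpa6/Cngb3 *Cdh18* stood at 766 and 419 against 84.8 and 179 CPM (-2.20 ± 0.45, adjusted p = 0.0070), in 6 to 11 nuclei per library. *Cdh8* in Eya1/Hs3st4 stood at 284 and 211 against 84.3 and 79.2 CPM (-1.50 ± 0.28, adjusted p = 0.013). *Cdh9* in Dach1/Unc5d stood at 194 and 146.4 against 38.3 and 0 CPM (-2.72 ± 0.56, adjusted p = 0.023). In each of these 3 pairs the groups did not overlap. *Cdh12* in Ankfn1/Pou4f1, the cluster with the most members at 50 CPM, was higher, with 224 and 127 against 663 and 384 CPM (1.54 ± 0.33, adjusted p = 0.018). *Cdh6* in Cnpy1/Adamts18 rested on AgRP-Gq;POMC-Gi replicate 1, with 96.0 and 143 against 1042 and 124 CPM (2.60 ± 0.59, adjusted p = 0.043), and the difference without that library was -0.18. Control replicate 1 was among the libraries without which the calls of *Cdh8*, *Cdh9* and *Cdh6*, of *Cdh18* in Cpa6/Cngb3, of *Pcdh11x* in both clusters and of *Pcdh9* in Cpne4/Trhde were lost, and *Cdh12* was lost without control replicate 2 or AgRP-Gq;POMC-Gi replicate 1. With each of the 4 libraries left out in turn, *Cdh8*, *Cdh9*, *Cdh12* and *Cdh18* in Cpa6/Cngb3 kept the call in 2 fits. *Cdh6*, *Pcdh11x* in both clusters and *Pcdh9* in Cpne4/Trhde kept it in 1 fit. Oligodendrocyte markers moved with the groups in some of these clusters, with 843 and 416 CPM in the control against 147 and 265 CPM with AgRP-Gq;POMC-Gi in Dach1/Unc5d, 1851 and 1829.8 against 853 and 794 CPM in Ankfn1/Pou4f1 and 915 and 159.2 against 90.4 and 95.6 CPM in Lmo3/Cpne4, and their part in the results was not tested. *Cdh12* had a positive log2 difference in 89 of 120 clusters, with a median of 0.22, and for the other 7 genes 58 to 71 of their 114 to 120 clusters were positive, with medians of -0.01 to 0.12. The clusters share the same 4 libraries and are not separate observations, and no share over all genes was computed. Over all neurons *Cdh12* stood at 464 and 482 against 566 and 470.5 CPM, so that the groups overlapped.

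**Figure D5:**
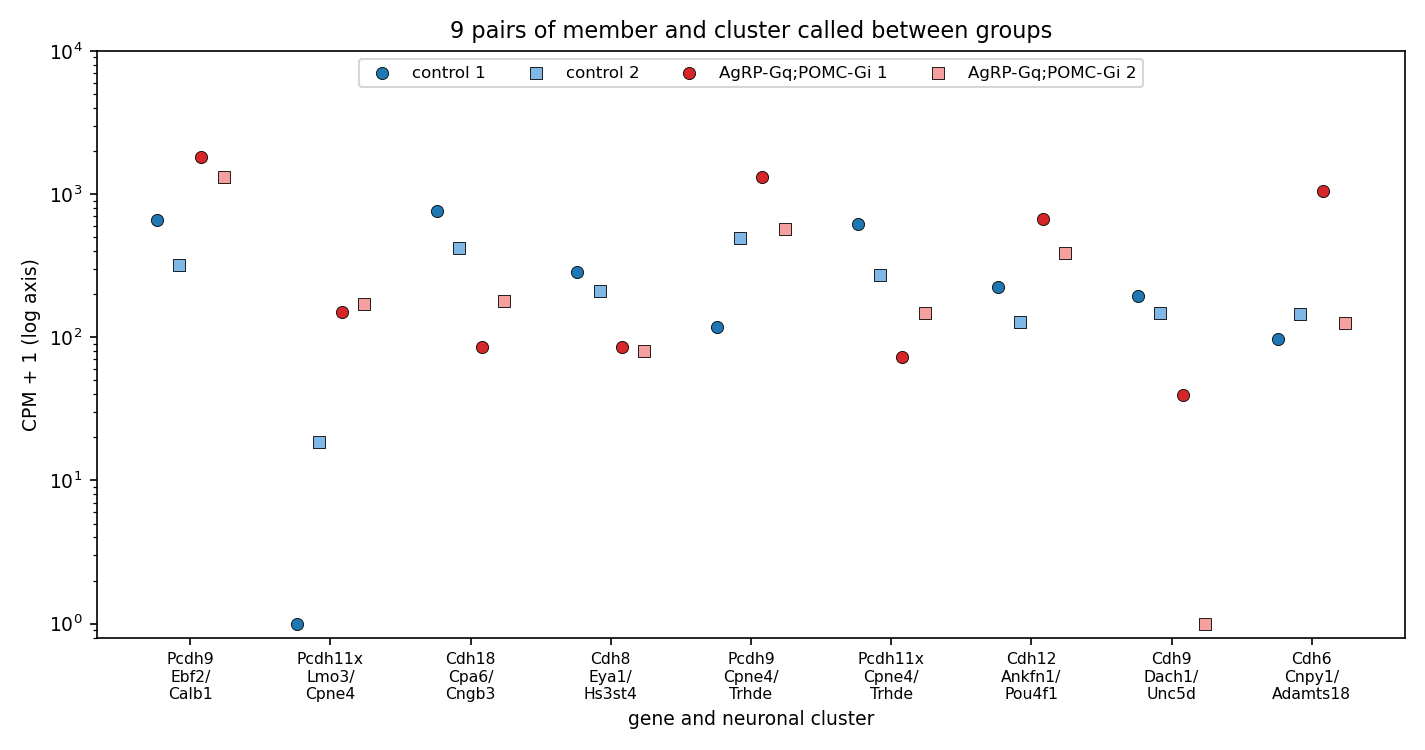
CPM + 1 on a log axis for 9 of the 11 pairs of member and neuronal cluster called between the groups, with blue points for the control and red points for the AgRP-Gq;POMC-Gi libraries. The colours separate in 8 of these pairs, which were picked by the p of this same comparison. In *Cdh6* of Cnpy1/Adamts18 a red point at 1042 CPM stands above the other 3 libraries.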

How the data were processed

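Nuclei were profiled in 4 libraries, 2 per group. The authors deposited UMI counts per gene and nucleus, made with Cell Ranger 7.0.0 on GRCm38 per the submitters' processing notes, which also name Seurat 4.3.0; whether intronic reads were counted is not given in the sources used here. The authors also deposited, per barcode, UMI counts and the percent of mitochondrial UMIs they had computed. The deposited annotation gave the nuclei that passed the authors' filters, their clusters and their cell types. The replicate is the library, and no doublet caller was run beyond the authors' own filtering.

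UMIs were summed per library and cell type, cluster or transmitter class. Levels are CPM, and shares of nuclei are percents, also after thinning to 800 UMIs per nucleus. Clusters and types are built from expression, so levels across them were described without a test. Group and class differences were tested with edgeR 4.0.16 (quasi-likelihood, TMM, R 4.3.3) on genes detected in 5% of the nuclei or more, in types to which every library gave 10 nuclei and clusters to which it gave 5, with p-values adjusted by Benjamini and Hochberg over all genes of a type or over all pairs of gene and cluster and a threshold of 0.05. Class tests had library as a term. With n = 2 libraries per group an exact permutation test cannot reach this threshold, so the p-values rest on the spread edgeR estimates across genes. DESeq2 1.42.0, other filters and scalings, a replicate block and leaving out each library were alternatives. An edgeR fit of the same form was tried on simulated counts, for group differences in some types and clusters and for the transmitter classes.

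Members named with library values were those of highest level in each structural class, the 10 of highest tau, the 3 leading members of 8 chosen clusters, the 5 highest and 3 lowest correlated pairs, called members, and otherwise the 3 of lowest unadjusted p in each type. The members and lists were chosen with earlier results of these data known. The ratio given for few UMIs has an exact 95% interval that covers counting error only. Promoter letters are from RefSeq. A planned alignment of protein sequences was not run. One of the 8 chosen clusters and 2 of the called pairs are not reported here. Other steps ran in Python 3.11.15 (scipy 1.17.1, numpy 2.4.6, pandas 2.3.3).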

Additional observations from a re-analysis of the deposited data

Results flagged for a closer look

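For some members the difference between AgRP-Gq;POMC-Gi and control libraries had opposite directions in 2 cell types or clusters, with every library on its side. The difference of the effects was then tested in one edgeR fit with library as a term. These pairs were chosen after their values were seen, and the p-values are adjusted over all genes of the fit. For *Pcdh11x* the effects were 0.33 in OPC (adjusted p = 0.739) and -0.58 in oligodendrocytes (adjusted p = 0.133), neither of which passed, and they differed by 0.92 ± 0.14 (SE; adjusted p = 0.0012, where 0.0843% of genes passed). For *Cdh11* they were 0.87 in oligodendrocytes (adjusted p = 0.0703) and -0.62 in mural cells (adjusted p = 0.734), which did not pass either, and they differed by 1.496 ± 0.30 (adjusted p = 0.0032, 0.469%). *Pcdh11x* was higher in the neuronal cluster Lmo3/Cpne4 and lower in Cpne4/Trhde, 5.59 ± 0.88 (adjusted p = 2e-05, 0.024%), of which the first rests on 2 UMIs in the control libraries.

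The other 5 differences did not pass. They were 2.88 ± 0.90 for *Pcdh9* in mural against Ms4a4b immune cells (adjusted p = 0.32, 0.108%), 1.61 ± 0.43 for *Pcdh7* in endothelial against Tmem119 immune cells (adjusted p = 0.69), 1.15 ± 0.48 for *Cdh10* in neurons against ependymal cells, 3.40 ± 1.57 for *Cdh2* in endothelial against Ms4a4b immune cells and 3.08 ± 1.71 for *Pcdh17* in neurons against Ms4a4b immune cells (adjusted p = 1 for each of these 3). *Cdh2* and *Pcdh17* had 1 UMI each in the Ms4a4b immune cells of AgRP-Gq;POMC-Gi libraries. In Ms4a4b immune cells the 4 oligodendrocyte markers summed to 3345 and 2012 CPM in the control and to 406 and 2155 CPM under AgRP-Gq;POMC-Gi. The 4 neuron markers summed there to 1097 and 1089 against 0 and 833 CPM. The part of both marker sets in these values was not tested.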

How the results depend on the processing

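Of the 32 members 26 to 31 kept their highest cell type under the alternatives run (30 to 31 with a library left out). The 23 highest neuronal clusters were less stable: 18 stayed when clusters needed 5 nuclei in each library, 7 when shares of nuclei thinned to 2000 UMIs replaced CPM, and 14 to 20 with a library left out, the fewest without control replicate 2. Median tau of the members and of all genes was 0.265 and 0.254 on log2(CPM + 1), 0.788 and 0.714 over genes in at least 1% of neurons, 0.737 and 0.656 without control replicate 2 and 0.771 and 0.685 without control replicate 1, so that the gap to all genes shrank from that of 0.762 and 0.640. With a library left out the members' median was 0.737 to 0.771. The correlation of *Cdh9* and *Cdh10* was 0.64 to 0.69 with a library left out. Between transmitter classes 11 to 17 members were called instead of 14, where 6.87% to 22.7% of all genes were called instead of 15.5% (22.7% with 17 members), and *Pcdh10*, *Cdh6*, *Cdh12* and *Pcdh7* lost their call in 1 alternative or more. Of members not called, *Cdh23* turned to 0.40 (adjusted p = 0.012), *Pcdh1* to 0.059 and *Pcdh9* to 0.022 when whole clusters were classed, *Cdh24* to 0.24 and *Cdh20* to -0.0038 with at least 2 UMIs required, and *Cdh23* to 0.0040 with DESeq2 and 0.0061 without a filter. With a library left out *Cdh23* ranged over -0.092 to 0.095, *Cdh24* over -0.084 to 0.037 and *Cdh20* over -0.014 to 0.11.

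Pairs of member and cell type called numbered 4 with DESeq2 (0.205% of all pairs), 6 without a filter (0.372%), 2 with filterByExpr (0.116%) and 1 to 17 with a library left out (0.201% to 2.79%), the most without AgRP-Gq;POMC-Gi replicate 2. Pairs of member and neuronal cluster numbered 0 with DESeq2 (0.00043% of all pairs), 0 with filterByExpr (0.00833%), 6 with at least 10 nuclei (0.0241%) and 7 to 24 with a library left out (0.0437% to 0.0773%), against 11 (0.0279%), the fewest without control replicate 1 and the most without control replicate 2. Leaving out a library turned the sign for *Cdh20* in endothelial cells (-0.32 to 1.82), *Pcdh7* in F13a1 immune cells (-2.15 to 5.32), *Cdh2* in fibroblasts (-0.029 to 1.61), *Pcdh9* (-0.95 to 0.59) and *Cdh23* (-0.47 to 0.31) in Tmem119 immune cells and *Cdh6* in Cnpy1/Adamts18 (-0.18 to 3.49). The cause of these changes was not tested. A fit with 1 library on a side assumes that it varies like the others.

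The sources used here tie same-numbered libraries of the 2 groups to no shared animal, batch or day. Their deviations correlated at -0.36 to 0.34 over 13 cell types (median 0.05), with 0.34 in oligodendrocytes, 0.24 in astrocytes and 0.18 in neurons, and the choroid plexus nuclei were mostly in both replicates 2. With the replicate number as a block 5 pairs of member and type (0.911% of all pairs) and 12 of member and cluster (0.0428%) were called, and *Pcdh15* in ependymal cells passed (adjusted p = 0.014). Crossed numbers as a block, chosen after seeing the data in the 2 types of lowest correlation, called no member, and 0 and 1 genes in fibroblasts and Oligodendrocytes/OPC. Depth limits members of few UMIs, such as *Cdh24*, and clusters with few nuclei per library.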

Other observations

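Cell types were not uniform in the members. Among oligodendrocytes *Pcdh15* stood at 1193, 1033, 1203 and 1138 CPM in cluster 7 (1298 nuclei) and at 72.6, 28.3, 37.6 and 31.3 CPM in cluster 26. *Pcdh7* stood at 737, 829, 1132 and 915 CPM in oligodendrocyte cluster 8 (1035 nuclei), against a mean of 15.7 CPM in cluster 6. Fibroblast cluster 93, with 3, 65, 34 and 3 nuclei in the 4 libraries, had *Pcdh7* at 3981, 2942, 4248 and 1473 CPM, and cluster 47 had *Cdh11* at 1207, 645, 647 and 839.5 CPM. *Cdh13* was at 276, 1057, 1301 and 1263 CPM in endothelial cluster 131 (65 nuclei) and at means of 13.9 to 114 CPM in the other endothelial clusters. *Cdh4* had a mean of 340.4 CPM in tanycyte-like cluster 61 and 37.8 CPM in cluster 141. These clusters were built from expression, so the values are descriptions.

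Genes that work with the members were also compared between transmitter classes, where 15.5% of all genes passed. Of 10 catenins and junction adaptors tested, *Arvcf* (0.30), *Ctnna2* and *Ctnnd2* (0.12 each) were higher in glutamatergic nuclei and *Ctnna1* (-0.52) in GABAergic nuclei. Of 7 large cadherins *Dchs1* (0.42) was higher in glutamatergic and *Fat1* (-0.66) and *Dchs2* (-0.56) in GABAergic nuclei, and of 3 calsyntenins *Clstn2* (-0.32) in GABAergic nuclei. Between AgRP-Gq;POMC-Gi and control libraries no pair of these genes and a neuronal cluster passed with edgeR among 2362 tested (0 called, against 0.0279% of all pairs, and 132 at an unadjusted p under 0.05). Of 193 pairs with a cell type 1 passed, the catenin *Ctnna2* in mural cells, named after its values were seen, against 0.111% of all pairs of gene and type and 0.751% of genes in mural cells. It stood at 93.4 and 86.4 CPM in the control and at 209.6 and 206 CPM with AgRP-Gq;POMC-Gi (1.23 ± 0.27, edgeR adjusted p = 0.0046), and the 4 neuron markers summed to 312 and 329 against 365 and 453 CPM there. Their part in the result was not tested.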
